A study of Mus musculus with 10 samples.

Results

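The circadian clock repressor and output genes are 10 genes of the mouse transcription feedback loop, taken as the rows of the deposited FPKM table whose identifier was Bhlhe40, Bhlhe41, Per1, Per2, Per3, Cry1, Cry2, Nr1d1, Nr1d2 or Dbp. All 10 were found among the 54343 genes of the table. Cultured cells of 2 related mouse tumour lines were profiled by stranded RNA sequencing of polyA RNA, with 5 libraries from MC38.T4 and 5 from MC38. MC38.T4 (genotype label: low mesothelin expression) is 1 clone. It came from an MC38 clone carrying a human mesothelin vector that was grown as a tumour in C57/BL6 mice, taken back into culture, passaged and cloned again. MC38 (genotype label: wild type) is the purchased parental line, and both lines were grown in the same serum-containing medium. The labels give neither the hour of harvest nor the time since the last medium change, and they leave unsaid if each library had its own culture. The p-values below therefore reflect library-to-library spread, part or all of which may be technical. A difference in clock phase at harvest and a lasting difference in level between the lines cannot be told apart here. This holds for every level, share and order below.

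The mammalian clock is a loop of transcription and repression that runs in nearly every cell, cultured fibroblasts and many tumour lines included. The activators CLOCK and BMAL1 bind E-box sequences and switch on the Per, Cry, Nr1d, Bhlhe and Dbp genes. PER and CRY proteins then bind the activators and silence them, the BHLHE40 and BHLHE41 proteins compete with them at E-boxes, and the NR1D receptors (REV-ERB alpha and beta) repress the BMAL1 gene through ROR elements. DBP carries the rhythm outward by activating genes that hold a D-box.

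Promoters of 8 of the 10 genes were found in the RefSeq table for assembly GRCm38.p6, in windows of 250 bases before to 50 bases after the annotated start, on the strand of the gene. Bhlhe40 and Per2, both higher in MC38.T4, had no window. The 8 genes had 9 windows, with more than 1 for Per1, so counts of genes are set beside shares of windows below. The 4 windows below belong to the gene with the largest rise in MC38.T4 (Dbp), the gene with the largest fall (Cry1), a risen gene with D-boxes (Per3) and a fallen repressor gene (Nr1d1). Capitals mark the motifs that were searched on both strands, which were CACGTG and CACGTT (E-boxes), TTATGTAA and TTACGTAA (D-boxes), AGGTCA (the core of a ROR element) and TGACGTCA (a cAMP response element). No 2 of the motifs overlapped in these windows.
Dbp promoter (GRCm38.p6, chr7:45704997-45705296, plus strand): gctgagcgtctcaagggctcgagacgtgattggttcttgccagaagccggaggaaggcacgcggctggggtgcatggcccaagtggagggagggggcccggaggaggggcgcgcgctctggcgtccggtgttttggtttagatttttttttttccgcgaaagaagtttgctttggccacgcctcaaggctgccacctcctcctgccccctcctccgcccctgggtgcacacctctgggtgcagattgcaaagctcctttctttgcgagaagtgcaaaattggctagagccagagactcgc
Per3 promoter (GRCm38.p6, chr4:151044616-151044915, minus strand): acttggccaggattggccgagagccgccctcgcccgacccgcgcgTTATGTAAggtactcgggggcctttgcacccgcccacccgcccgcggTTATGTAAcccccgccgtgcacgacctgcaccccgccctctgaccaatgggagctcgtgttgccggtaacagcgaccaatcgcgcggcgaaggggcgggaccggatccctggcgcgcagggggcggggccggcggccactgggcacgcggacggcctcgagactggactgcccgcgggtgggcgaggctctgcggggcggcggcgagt
Cry1 promoter (GRCm38.p6, chr10:85185005-85185304, minus strand): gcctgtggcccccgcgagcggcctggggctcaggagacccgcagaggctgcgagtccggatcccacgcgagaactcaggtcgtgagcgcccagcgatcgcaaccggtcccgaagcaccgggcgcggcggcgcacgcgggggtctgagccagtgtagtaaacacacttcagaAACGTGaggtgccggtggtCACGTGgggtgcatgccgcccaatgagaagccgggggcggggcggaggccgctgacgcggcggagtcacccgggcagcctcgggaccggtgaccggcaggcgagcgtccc
Nr1d1 promoter (GRCm38.p6, chr11:98775328-98775627, minus strand): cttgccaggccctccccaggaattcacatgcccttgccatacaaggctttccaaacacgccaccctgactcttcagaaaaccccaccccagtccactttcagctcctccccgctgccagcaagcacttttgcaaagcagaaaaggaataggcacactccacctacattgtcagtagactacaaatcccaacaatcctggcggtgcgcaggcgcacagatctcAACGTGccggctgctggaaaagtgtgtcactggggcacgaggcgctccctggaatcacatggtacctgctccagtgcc
Per3 held TTATGTAA at 2 places, starting 205 and 158 bases before its start, a motif present in 0.938% of all 32851 promoter windows of the table. Cry1 held CACGTG 60 bases and the reverse of CACGTT 79 bases before its start, and Nr1d1 held the reverse of CACGTT 28 bases before its start. The first of these was present in 7.15% of all windows and CACGTT in 4.69%. The Dbp window held none of the 6 motifs. CACGTG was found in 3 of the 8 genes (Cry1, Per1 and Bhlhe41), CACGTT in 3 (Cry1, Cry2 and Nr1d1), AGGTCA in 2 (Per1 and Nr1d2, against 16.3% of all windows) and TTATGTAA in 1. TTACGTAA and TGACGTCA, present in 0.119% and 1.79% of all windows, were found in none of the 8. A match is a description of the letters, and these windows were not read from the cells sequenced here.

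FPKM (fragments scaled to gene length and to the mapped fragments of the library) summed to between 478019 and 484461 in MC38.T4 libraries and between 442183 and 477015 in MC38 libraries. The sources used here give no read totals, so no counting interval can be attached to a value. MC38.T4 replicate 4 stood out by its Malat1 level of 124.8 FPKM, where the remaining libraries of that line had between 53.1 and 75.9 FPKM, and MC38 replicate 1 by the lowest FPKM sum. Results without both are given where they moved a log2 change by over 1.5 times or gave the highest adjusted p. None of 10 gut epithelium markers reached the detection filter. Among them, Cdh1 had a mean of 1.00 FPKM in MC38.T4 and 0.021 FPKM in MC38. Krt19 went the other way, at 0 FPKM in MC38.T4 and 0.041 FPKM in MC38. Of 7 melanocyte markers 1 did (Mitf), although the tissue label reads melanoma while the library names and the treatment text speak of colon cancer. Of 8 leukocyte markers 1 reached the filter (Cd68), none of 4 endothelial markers did, and 4 of 6 fibroblast and pericyte markers did. Mitf and the fibroblast and pericyte markers Pdgfrb and Acta2 met the filter through MC38.T4 alone. Summed over its list, the fibroblast and pericyte level lay between 100.8 and 110.2 FPKM in MC38.T4 and between 28.0 and 31.5 FPKM in MC38, with Thy1 listed at 0 in every library, and the part of this difference in the results below was not tested. In bulk RNA, fewer cells expressing a gene and less of its RNA per cell cannot be told apart.

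The clock genes split in direction. Dbp, Bhlhe40, Bhlhe41, Per2 and Per3 were higher in MC38.T4, and Per1, Cry1, Cry2, Nr1d1 and Nr1d2 were lower. Each log2 change is the mean log2(FPKM + 1) in MC38.T4 less that in MC38, a scale that understates changes of low genes. Changes were tested with limma, with Benjamini-Hochberg adjustment over the 11110 genes that reached 1 FPKM in 5 or more libraries. All 10 genes passed at a threshold of 0.05, with 5 higher and 5 lower, in a comparison where 86.0% of all tested genes passed, 43.1% higher and 42.9% lower. Both this count and its split in direction are near the background of these lines, so the size and direction of each single gene carry the description. At least 2-fold, 3 were higher (Dbp, Bhlhe40 and Per3) and 0 were lower, against 10.0% and 7.14% of all tested genes. The median absolute log2 change was 0.69, against 0.47 over all tested genes. Dbp and Per2 reached 1 FPKM in no MC38 library and Per3 in 1, so these 3 genes could enter the test only by being higher in MC38.T4. The libraries of the lines did not overlap for any of the 10 genes, which was so for 77.4% of all tested genes.

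**Figure D1:**
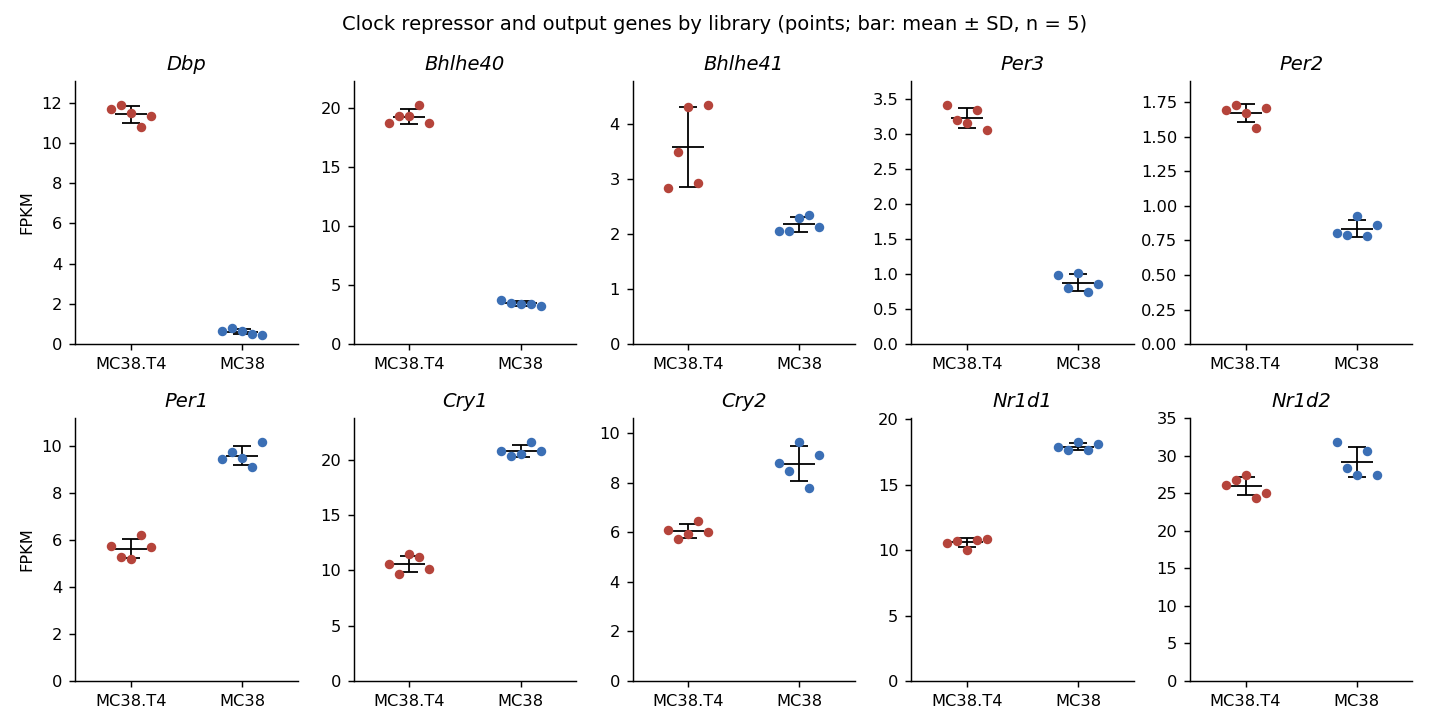
FPKM of the 10 clock repressor and output genes in each library (points), with the mean and SD of 5 libraries per line as bars, MC38.T4 left and MC38 right in each panel. The top row holds the 5 genes that were higher in MC38.T4, from Dbp at 11.4 against 0.618 FPKM to Per2 at 1.67 against 0.834 FPKM, and the bottom row the 5 that were lower.

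The largest change was that of Dbp, the D-box activator and a classic direct output of the E-box loop. Dbp had 11.7, 11.9, 11.5, 10.8 and 11.3 FPKM in MC38.T4 replicates 1 to 5, against 0.637, 0.785, 0.657, 0.527 and 0.481 FPKM in MC38 replicates 1 to 5. Every MC38.T4 library was more than 10 FPKM and every MC38 library below 1 FPKM. The means were 11.4 ± 0.42 FPKM in MC38.T4 and 0.618 ± 0.12 FPKM in MC38 (SD, n = 5 each), an 18.5-fold difference. Its log2 change was 2.94 (SE 0.05, limma adjusted p = 7.85e-16), and 0.405% of the tested genes rose as much or more. Sphk2, a sphingosine kinase gene that the RefSeq table places on the other strand and partly over Dbp, went the other way (6.48 ± 0.50 FPKM in MC38.T4 and 8.29 ± 0.48 FPKM in MC38, SD, n = 5 each).

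The other D-box activator genes, Tef and Hlf, rose with Dbp, and the D-box repressor gene Nfil3 fell. Tef and Hlf encode the remaining activators of the same PAR bZIP family, and Nfil3 encodes the repressor that binds the same sequence. Tef had 29.9, 31.2, 29.2, 27.3 and 29.7 FPKM in MC38.T4 replicates 1 to 5, against 8.35, 8.41, 8.26, 8.49 and 7.89 FPKM in MC38. Hlf had 1.10, 1.21, 1.30, 1.10 and 1.29 FPKM in MC38.T4, against 0.193, 0.177, 0.114, 0.157 and 0.162 FPKM in MC38, and met the filter through MC38.T4 alone. The log2 change was 1.71 for Tef (SE 0.04, limma adjusted p = 7.23e-15) and 0.92 for Hlf (SE 0.05, limma adjusted p = 4.55e-11). This size depends on the pseudocount, and the log2 change of Hlf was 2.32 with a pseudocount of 0.1, where the ratio of mean FPKM was 7.48. Nfil3 had 6.54, 6.01, 6.29, 10.3 and 7.28 FPKM in MC38.T4 replicates 1 to 5, against 28.1, 30.7, 29.3, 30.9 and 31.0 FPKM in MC38. It was 4.12-fold lower in MC38.T4 (log2 change -1.92, SE 0.11, limma adjusted p = 1.53e-08), and its highest MC38.T4 value was that of replicate 4, the library with the highest Malat1. Summed, the activators Dbp, Tef and Hlf reached 42.1 ± 1.9 FPKM in MC38.T4 and 9.06 ± 0.32 FPKM in MC38 (SD, n = 5 each). Tef remained the most abundant of them in both lines.

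**Figure D2:**
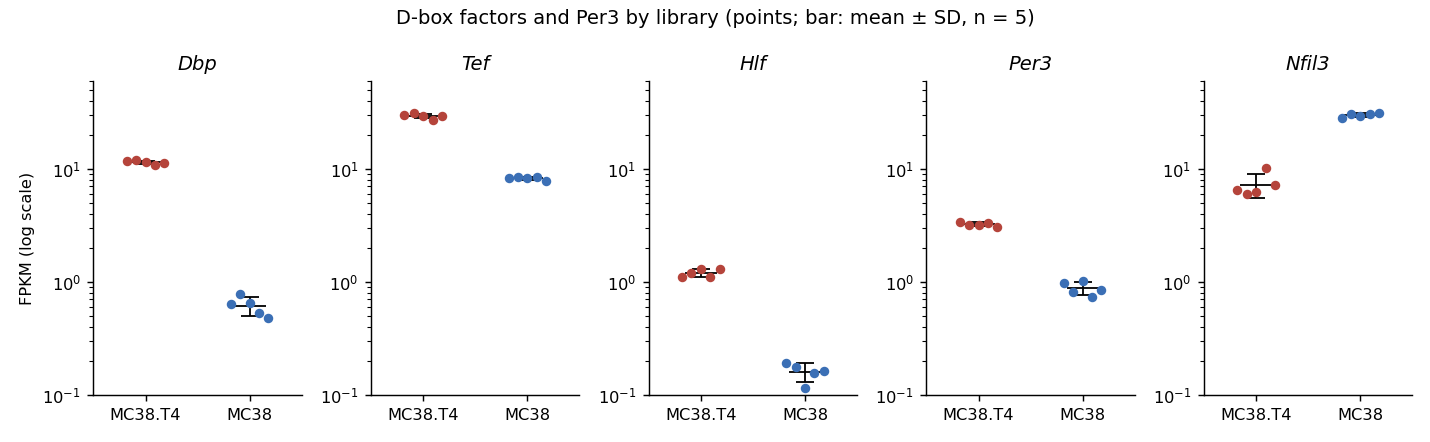
FPKM on a log axis of the D-box activators Dbp, Tef and Hlf, of Per3, whose promoter window holds D-box letters, and of the D-box repressor Nfil3, by library (points) with mean and SD (n = 5 per line), MC38.T4 left of MC38. The first 4 genes stand higher in every MC38.T4 library and Nfil3 lower, at 7.28 against 30.0 FPKM on average. A link between the D-box letters and the level of Per3 was not tested.

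Among the E-box competitors, Bhlhe40 rose strongly and its paralog Bhlhe41 modestly. Both encode basic helix-loop-helix repressors (DEC1 and DEC2) that are also known targets of hypoxia signalling. Bhlhe40 had 18.7, 19.3, 19.4, 20.3 and 18.7 FPKM in MC38.T4 replicates 1 to 5, against 3.73, 3.50, 3.41, 3.44 and 3.20 FPKM in MC38. Its mean was 19.3 ± 0.64 FPKM in MC38.T4 and 3.45 ± 0.19 FPKM in MC38 (SD, n = 5 each), 5.58-fold higher (log2 change 2.19, SE 0.04, limma adjusted p = 9.78e-16), and 1.15% of tested genes rose as much or more. Bhlhe41 had 2.84, 3.50, 4.32, 2.94 and 4.35 FPKM in MC38.T4, against 2.06, 2.06, 2.29, 2.35 and 2.13 FPKM in MC38. The lines did not overlap, but the MC38.T4 libraries of Bhlhe41 spread more than those of any other of the 10 genes, with a coefficient of variation of 20.2% in MC38.T4 and 6.27% in MC38. The log2 change of Bhlhe41 was 0.52 (SE 0.09, limma adjusted p = 7.36e-05).

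The Per genes, which encode the period proteins of the repressor complex, went in opposite directions. Per3 and Per2 were higher and Per1, the most abundant of them in both lines, was lower. Per1 had 5.76, 5.27, 5.20, 6.20 and 5.71 FPKM in MC38.T4 replicates 1 to 5, against 9.43, 9.73, 9.47, 9.09 and 10.2 FPKM in MC38. The 2 lines stood well apart, with a log2 change of -0.68 (SE 0.05, limma adjusted p = 2.47e-09). Per2 had 1.69, 1.73, 1.67, 1.56 and 1.71 FPKM in MC38.T4, against 0.805, 0.788, 0.928, 0.783 and 0.864 FPKM in MC38 (log2 change 0.54, SE 0.04, limma adjusted p = 1.23e-08), and stood 2.01-fold higher as a ratio of mean FPKM. With a pseudocount of 0.1 the log2 change of Per2 was 0.93 and that of Per3, given next, 1.77. Per3 had 3.42, 3.21, 3.16, 3.34 and 3.06 FPKM in MC38.T4, against 0.986, 0.807, 1.02, 0.743 and 0.857 FPKM in MC38. It was 3.67-fold higher (log2 change 1.17, SE 0.05, limma adjusted p = 8.84e-12). The promoter window of Per3 shows the pair of D-box letters above, and a link between those letters and its level was not tested. The sum over the Per genes differed little, at 10.5 ± 0.45 FPKM in MC38.T4 and 11.3 ± 0.46 FPKM in MC38 (SD, n = 5 each), and the libraries of the lines overlapped in that sum.

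Both cryptochrome genes, which encode the strongest repressors of CLOCK and BMAL1, were lower in MC38.T4. Cry1 had 10.6, 9.69, 11.5, 11.2 and 10.1 FPKM in MC38.T4 replicates 1 to 5, against 20.8, 20.3, 20.5, 21.6 and 20.8 FPKM in MC38. Its mean was 10.6 ± 0.74 FPKM in MC38.T4 and 20.8 ± 0.51 FPKM in MC38 (SD, n = 5 each), 1.96-fold lower (log2 change -0.91, SE 0.04, limma adjusted p = 2.71e-11), and 8.90% of tested genes fell as much or more. Cry2 had 6.11, 5.75, 5.93, 6.48 and 6.03 FPKM in MC38.T4, against 8.81, 8.49, 9.66, 7.79 and 9.12 FPKM in MC38 (log2 change -0.47, SE 0.05, limma adjusted p = 4.74e-07).

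Of the REV-ERB genes, Nr1d1 was lower by a clear margin and Nr1d2 by a narrow one. Nr1d1 had 10.6, 10.7, 10.0, 10.8 and 10.9 FPKM in MC38.T4 replicates 1 to 5, against 17.9, 17.7, 18.3, 17.7 and 18.1 FPKM in MC38. It was 1.69-fold lower (log2 change -0.71, SE 0.03, limma adjusted p = 2.23e-11), and it had the smallest coefficient of variation of the 10 genes in either line, 3.20% in MC38.T4 and 1.55% in MC38. Thra, a thyroid hormone receptor gene, overlaps Nr1d1 in the RefSeq table and went the opposite way, to 19.4 ± 1.5 FPKM in MC38.T4 and 8.80 ± 0.39 FPKM in MC38 (SD, n = 5 each). Whether the authors counted reads by strand is not given, so reads from the overlap of Nr1d1 with Thra, or of Dbp with Sphk2, cannot be assigned with certainty. Nr1d2 had 26.1, 26.8, 27.4, 24.4 and 25.1 FPKM in MC38.T4, against 31.9, 28.4, 27.5, 30.7 and 27.4 FPKM in MC38. The highest MC38.T4 library (27.43 FPKM) lay just under the lowest MC38 library (27.44 FPKM), and the log2 change of Nr1d2 was -0.16 (SE 0.05, 95% interval -0.26 to -0.06, limma adjusted p = 0.00535). Without the libraries that stand apart, MC38.T4 replicate 4 and MC38 replicate 1, its adjusted p from limma was 0.0261, the highest of 19 alternatives, and the lowest was 0.00113. In an exact permutation test over the libraries each of the 10 genes gave p = 0.00794 (two-sided, n = 5 per line), the smallest this test can give.

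The make-up of every paralog family differed between the lines, since its members changed by unequal amounts, and in the Per family in opposite directions. FPKM is per gene length, so levels within a family can be added, and a share does not depend on the library total. Per1 made up 53.3% ± 1.8 of the summed Per FPKM in MC38.T4 and 84.8% ± 1.3 in MC38 (SD, n = 5 each). Per3 made up 30.8% ± 1.0 in MC38.T4 and 7.81% ± 0.96 in MC38, and Per2 15.9% ± 1.1 in MC38.T4 and 7.38% ± 0.45 in MC38. The Per mixture of MC38 was therefore mostly Per1, while in MC38.T4 Per2 and Per3 together held nearly as much as Per1. Bhlhe40 held 84.3% ± 2.8 of the Bhlhe40 and Bhlhe41 sum in MC38.T4 and 61.3% ± 2.2 in MC38, and Dbp held 27.2% ± 0.32 of the Dbp, Tef and Hlf sum in MC38.T4 and 6.80% ± 1.1 in MC38 (SD, n = 5 each). Smaller shifts were those of Cry1 in the Cry sum (63.6% ± 1.3 in MC38.T4 and 70.3% ± 2.0 in MC38) and of Nr1d1 in the Nr1d sum (29.0% ± 1.5 in MC38.T4 and 38.1% ± 1.8 in MC38). All 7 shares differed without overlap between the lines in an exact permutation test (two-sided, p = 0.00794 for each, adjusted over the 7 shares 0.00794, n = 5 per line), which is the smallest p the design allows. The shares are built from the same values as the changes above, and the Per shares depend on one another. They restate those changes and are not 7 separate results.

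**Figure D3:**
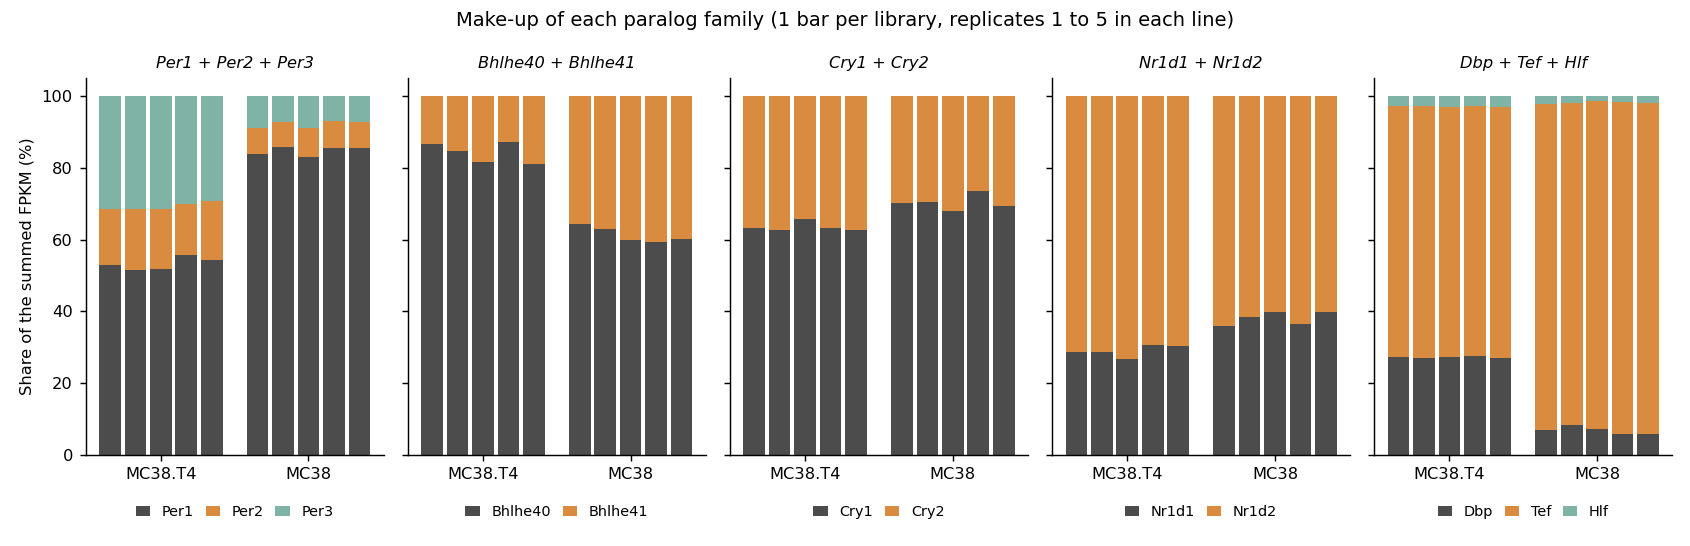
Share of the summed FPKM (%) that each gene takes in its paralog family, 1 bar per library, with the 5 MC38.T4 libraries left of the 5 MC38 libraries in each panel. The Per panel shows Per1 between 51.6% and 55.8% in MC38.T4 and between 83.0% and 85.9% in MC38.

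The order of levels changed as well. In MC38.T4 the order by mean FPKM was Nr1d2, Bhlhe40, Dbp, Cry1, Nr1d1, Cry2, Per1, Bhlhe41, Per3 and Per2. Libraries overlapped between Dbp and Cry1, between Cry1 and Nr1d1, between Cry2 and Per1 and between Bhlhe41 and Per3. Cry2 nonetheless stood above Per1 within every MC38.T4 library. The order of the other overlapping neighbours varied from library to library, so they could not be ranked. In MC38 the order was Nr1d2, Cry1, Nr1d1, Per1, Cry2, Bhlhe40, Bhlhe41, Per3, Per2 and Dbp, with overlap between Per1 and Cry2, between Per3 and Per2 and between Per2 and Dbp. Nr1d2 was thus the most abundant of the 10 in both lines. In MC38.T4 the libraries of Dbp overlapped those of Cry1 and of Nr1d1. In MC38 Dbp had the lowest mean. Its range over the MC38 libraries overlapped those of Per2 and of Per3, but within every MC38 library Dbp stood below both.

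The main activator genes, Arntl and Clock, were slightly lower in MC38.T4. Arntl, the gene of BMAL1, had 5.29 to 6.31 FPKM in MC38.T4 (mean 5.78 ± 0.40) and 6.74 to 7.31 FPKM in MC38 (mean 7.02 ± 0.21, SD, n = 5 each), a log2 change of -0.24 (SE 0.05, limma adjusted p = 0.000138). Clock, its partner, stood at 13.1 ± 0.56 FPKM in MC38.T4 and 15.7 ± 2.4 FPKM in MC38, with overlapping libraries (log2 change -0.23, SE 0.08, limma adjusted p = 0.0146). The log2 change of Clock was -0.15 without MC38 replicate 1 (limma adjusted p = 0.0118) and -0.14 without that library and MC38.T4 replicate 4 (limma adjusted p = 0.025). Arntl2, the BMAL1 paralog, was a little higher, at 3.49 ± 0.22 FPKM in MC38.T4 and 2.69 ± 0.22 FPKM in MC38, and the log2 change of Arntl2 was 0.29, or 0.15 with quantile normalization. Rorb, a nuclear receptor that activates ROR elements where the NR1D receptors repress, had 2.90 ± 0.15 FPKM in MC38.T4 and 0.467 ± 0.054 FPKM in MC38 (log2 change 1.41, SE 0.05, limma adjusted p = 3.41e-13), and met the filter through MC38.T4 alone. With a pseudocount of 0.1 the log2 change of Rorb was 2.41. Of 7 activator genes 4 were tested, 2 higher and 2 lower, where 43.1% of all tested genes were higher and 42.9% lower. Npas2 and Rora were among those below the filter in both lines.

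Among 8 other D-box factors and co-repressors, all tested, 5 were higher and 2 lower, against 43.1% and 42.9% of all tested genes. Beside Tef, Hlf and Nfil3, Ciart, a CLOCK and BMAL1 repressor also called CHRONO, was lower on average, at 10.5 ± 1.3 FPKM in MC38.T4 and 12.5 ± 1.3 FPKM in MC38 (SD, n = 5 each, log2 change -0.23, SE 0.08, limma adjusted p = 0.0149), with overlapping libraries. Without MC38.T4 replicate 4 the log2 change of Ciart was -0.30 (limma adjusted p = 0.000545), and without MC38 replicate 1 as well it was -0.35 (limma adjusted p = 7.25e-06). Hdac3, the deacetylase that the NR1D receptors recruit, was higher (45.0 ± 1.8 FPKM in MC38.T4 and 31.5 ± 1.4 FPKM in MC38). Its partner Ncor1 had 29.1 ± 0.58 FPKM in MC38.T4 and 27.2 ± 2.4 FPKM in MC38 (limma adjusted p = 0.0742). The call of Ncor1 depends on the setting, with a limma adjusted p between 0.00251 and 0.435 over 19 alternatives. These 2 genes, Timeless and Tipin lie outside the rule for named genes and were chosen after their values were seen. Timeless had 10.5 ± 0.53 FPKM in MC38.T4 and 7.76 ± 0.39 FPKM in MC38, and Tipin, whose product binds TIMELESS at replication forks, 82.9 ± 2.2 FPKM in MC38.T4 and 47.2 ± 2.2 FPKM in MC38 (SD, n = 5 each).

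Of 17 tested genes for kinases, phosphatases and ubiquitin pathway enzymes that act on clock proteins, 6 were higher and 10 lower. Over all tested genes, 43.1% were higher and 42.9% lower. The median log2 change was -0.41 in this list, against 0.00077 over all tested genes. The largest rises were those of Ppp5c, a phosphatase of casein kinase 1 epsilon (54.4 ± 2.7 FPKM in MC38.T4 and 35.9 ± 1.7 FPKM in MC38), and Csnk1a1, casein kinase 1 alpha (147.3 ± 4.1 FPKM in MC38.T4 and 98.2 ± 6.2 FPKM in MC38). The largest fall was that of Prkaa2, a catalytic subunit of AMP kinase (1.52 ± 0.02 FPKM in MC38.T4 and 4.02 ± 0.61 FPKM in MC38). Csnk1d, the casein kinase 1 delta gene, was chosen after its values were seen, and had 62.9 ± 0.83 FPKM in MC38.T4 and 95.1 ± 1.8 FPKM in MC38 (SD, n = 5 each).

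Of 12 tested clock-controlled output genes 4 were higher and 6 lower, against 43.1% and 42.9% of all tested genes. Rgs16, a regulator of G protein signalling, had 9.25 ± 1.9 FPKM in MC38.T4 and 3.28 ± 0.30 FPKM in MC38. Klf10, a zinc finger repressor gene, had 13.8 ± 0.41 FPKM in MC38.T4 and 31.8 ± 0.64 FPKM in MC38, and Leprotl1 28.6 ± 1.6 FPKM in MC38.T4 and 52.2 ± 1.4 FPKM in MC38 (SD, n = 5 each).

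Of 12 tested genes of the signals that reset the clock in cultured cells, 5 were higher and 5 lower, again against 43.1% and 42.9% of all tested genes. The glucocorticoid target Fkbp5 had 38.0 ± 1.9 FPKM in MC38.T4 and 16.2 ± 1.0 FPKM in MC38, while Tsc22d3, another glucocorticoid target, had 12.6 ± 0.59 FPKM in MC38.T4 and 20.8 ± 0.63 FPKM in MC38. Hsf1, the heat shock factor, had 47.5 ± 0.82 FPKM in MC38.T4 and 24.4 ± 1.3 FPKM in MC38, and Crtc3, a CREB coactivator, 7.01 ± 0.31 FPKM in MC38.T4 and 18.9 ± 1.2 FPKM in MC38 (SD, n = 5 each). Of 5 tested oxygen-sensing genes, a pathway known to induce Bhlhe40 and Bhlhe41, 4 were higher and 1 lower, beside the same shares of all tested genes. Egln3 had 12.5 ± 0.92 FPKM in MC38.T4 and 7.05 ± 0.40 FPKM in MC38, Hif1a 40.7 ± 1.0 FPKM in MC38.T4 and 28.3 ± 2.6 FPKM in MC38, and Vhl, which marks HIF1A for degradation, 12.5 ± 0.78 FPKM in MC38.T4 and 15.0 ± 0.80 FPKM in MC38 (SD, n = 5 each).

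**Figure D4:**
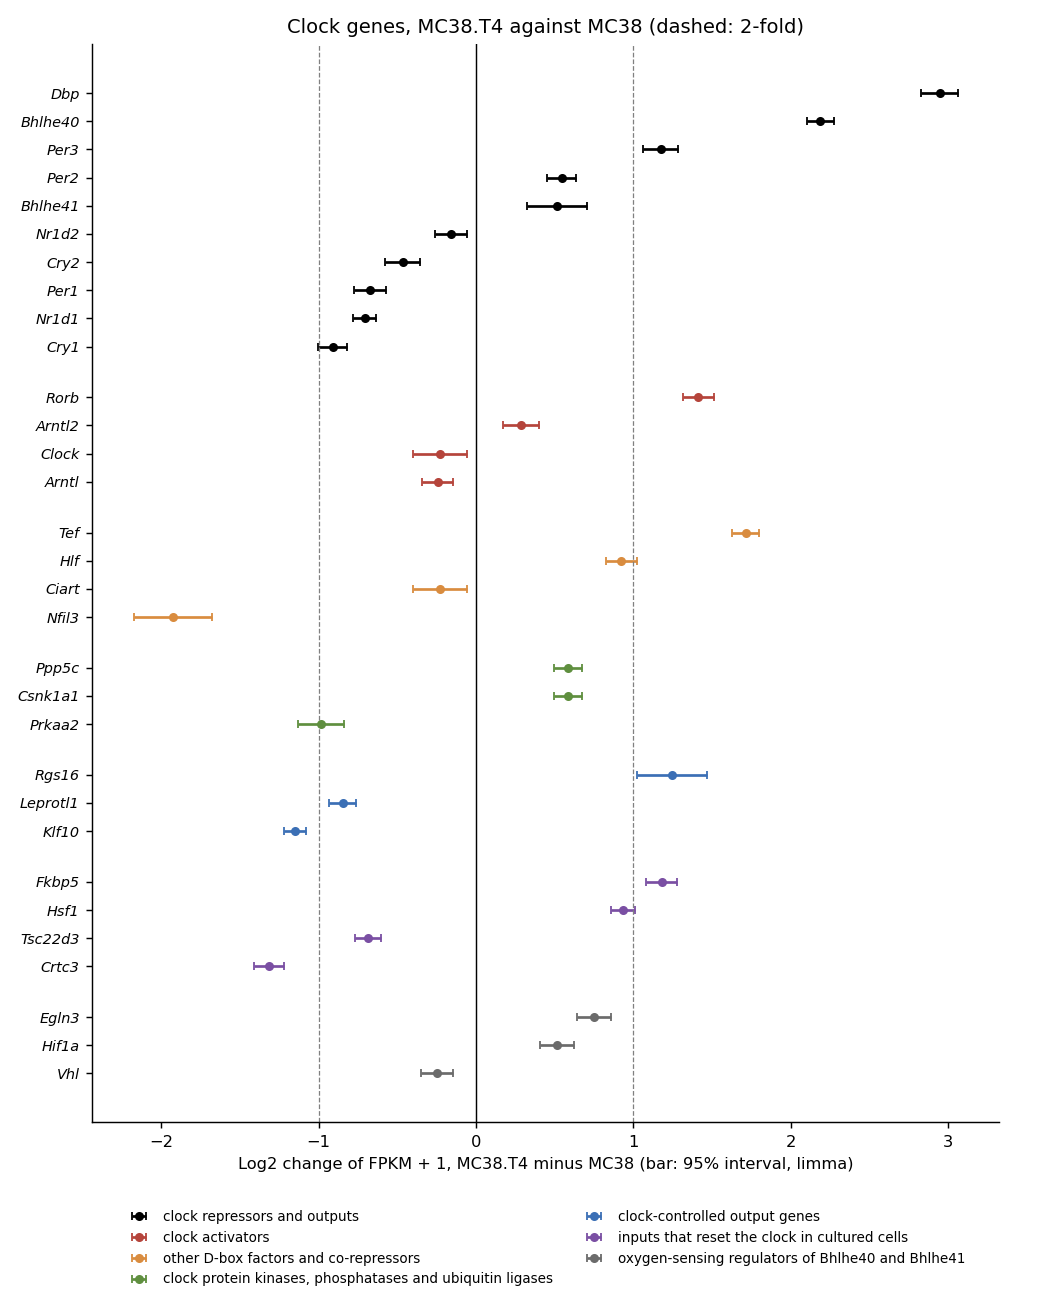
Log2 change of FPKM + 1 (MC38.T4 minus MC38) with its 95% interval from limma for the 10 clock repressor and output genes and named genes of the other clock lists, dashed lines marking 2-fold. Dbp (2.94) and Bhlhe40 (2.19) lie farthest right and Nfil3 (-1.92) farthest left, while Arntl (-0.24) and Clock (-0.23) lie near 0.

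Profiles of the tested genes were compared with Gm and Rik gene models left out. The genes whose profiles over the 10 libraries were most like that of Dbp were Ssr4, Fads2 and Ccne1. Their root mean square differences from Dbp, on log2 values centred on the mean of each gene, were 0.0755, 0.0934 and 0.0950. The median over all genes so compared was 1.47. For Cry1 the nearest were Mia2, Senp6 and BC002059, with differences of 0.0341, 0.0481 and 0.0493, against a median of 0.476. With 2 lines the size of the change between them sets most of this likeness.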

How the data were processed

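The authors deposited their values as FPKM in 1 table, whose rows are gene symbols and whose columns are libraries. Per the submitters' processing notes, the genome build was GRCm39, and DESeq2 is named with no version or role. The sources used here do not name the aligner, the counting program, the annotation or the strand setting. Library names in the sample descriptions tied every column to its sample. Depth in reads is unknown, since FPKM keeps no counts, and no test for counts was run.

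FPKM were analysed as log2(FPKM + 1) in R 4.3.3 and limma 3.58.1. The model held the line as its single term, variances were moderated with the trend and robust options, and tests were two-sided. Genes reaching 1 FPKM in 5 or more of the 10 libraries entered, with Benjamini-Hochberg adjustment over all 11110 of them and a threshold of 0.05. The fit was first tested on simulated data. Exact permutation tests ran over all assignments of libraries to lines. Tables, permutations and figures used Python 3.11.15, NumPy 2.4.6, pandas 2.3.3 and matplotlib 3.10.9. The 10 genes, the other lists and the naming rule were chosen with earlier results of these data known. Named are the 10 genes, all tested activators, at most 2 rises and 2 falls past the test of each other clock list, neighbours of the 10 genes, and the 3 genes most like the largest rise and the largest fall, and a few genes so picked are not reported here. Names, neighbours and promoters came from RefSeq tables of GRCm38.p6, another build than the authors', and of 111 list symbols all were found, 2 of them by an older symbol. Same-numbered libraries of the lines were not treated as pairs. Alternatives changed the pseudocount (0.1), the filter (none, or 5 FPKM), the scaling (TPM, equal medians or quantiles), the moderation (plain eBayes) and the model (replicate number as a block). Others left out each library in turn and, chosen after seeing the data, both libraries that stand apart.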

Additional observations from a re-analysis of the deposited data

Results flagged for a closer look

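In groups of 5 libraries, 2 values stood apart from the other libraries of their line, out of 116 groups examined, and chance alone would single out about 1 in 20 groups. Ciart had 12.9 FPKM in MC38.T4 replicate 4, while the remaining libraries of the line held between 9.72 and 10.04 FPKM. Replicate 4 is also the MC38.T4 library with the highest Malat1. The log2 change of Ciart was -0.30 without that library (limma adjusted p = 0.000545), against -0.23 with all libraries (limma adjusted p = 0.0149). The share of Cry1 in the Cry sum was 65.9% in MC38.T4 replicate 3, while the remaining libraries of the line held between 62.6% and 63.3%, still below the lowest MC38 value of 68.0%.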

How the results depend on the processing

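All 187 values of the 10 genes under 19 alternatives kept their direction and stayed past the threshold. With a minimum FPKM of 5, fewer genes could be tested, and 2 of the 10 genes were called higher in place of 5, while 0 activators were called higher in place of 2. Counts over all genes and over the other clock lists stayed within 1.5 times. All 7 paralog shares kept their direction and their call as log2 ratios, without each library in turn and without both libraries that stand apart. Of 770 values of 41 other named genes and neighbours, 21 lost the call, 1 gained it and 6 changed sign. Genes chosen after their values were seen, such as Ncor1, and those most like Dbp and Cry1 are not among the 41. The changes of sign were all for Rassf8, a neighbour of Bhlhe41 that was not called (log2 change 0.015). It stood at -0.0309 after rescaling to TPM, -0.00833 with quantile normalization, -0.0131 after a shift to equal medians, between -0.028 and 0.077 without 1 library, and at 0.11, now called, without both libraries that stand apart. Same-numbered libraries share only a number: their deviations correlated between -0.13 and 0.14 over 5 pairs, and with the replicate block 9534 genes passed in place of 9555, with all 10 clock genes among them. FPKM keeps no read counts, so the precision of low values such as those of Dbp, Per2 and Per3 in MC38 could not be given.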

Other observations

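Flanking genes were the nearest on each side of a clock gene in the RefSeq table, passing over entries such as Gm, Rik and LOC models. Of 16 tested genes that flank the 10 clock genes in this sense, 8 were called in the direction of their clock gene. In the other direction 7 were called, and 1 was not called. Over all tested genes, 43.1% were called higher and 42.9% lower. Both flanks of Per3 were higher with it, Tnfrsf9 at 2.48 ± 0.22 FPKM in MC38.T4 and 1.79 ± 0.14 FPKM in MC38 and Vamp3 at 49.3 ± 2.6 FPKM in MC38.T4 and 37.4 ± 0.77 FPKM in MC38 (SD, n = 5 each). Mapk8ip1, beside Cry2, had 22.2 ± 0.81 FPKM in MC38.T4 and 8.35 ± 0.44 FPKM in MC38 (SD, n = 5 each), opposite to Cry2, while Slc35c1 on the other side had 7.11 ± 0.39 FPKM in MC38.T4 and 10.7 ± 0.70 FPKM in MC38. Vamp2, a vesicle fusion gene beside Per1, had 14.4 ± 0.58 FPKM in MC38.T4 and 5.71 ± 0.77 FPKM in MC38, again opposite to its neighbour. Arl8b and Itpr1, on either side of Bhlhe40, had 62.2 ± 4.5 and 2.64 ± 0.24 FPKM in MC38.T4, against 75.9 ± 8.4 and 2.17 ± 0.29 FPKM in MC38, and Itpr1 lost its call with quantile normalization (limma adjusted p = 0.343). Rpl18, which follows Sphk2 beside Dbp, had 718.3 ± 36 FPKM in MC38.T4 and 516.2 ± 22 FPKM in MC38, with a log2 change of Rpl18 of 0.48, or 0.30 with quantile normalization, far smaller than that of Dbp.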
